A study of Mus musculus with 2 samples.

Results

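The nuclear genes for mitochondrial ribosomal proteins were taken as every gene whose symbol starts with Mrpl or Mrps followed by a number and that has at least 1 protein-coding transcript. Of 55536 annotated genes, of which 22028 are protein-coding, 78 met this rule, 49 named for the large subunit (Mrpl) and 29 for the small subunit (Mrps). Another 5 symbols of the same form, Mrpl23-ps1, Mrpl48-ps and 3 copies of Mrps36, had no protein-coding transcript and were not members. The RNA came from hearts of male B6CASTF1/J mice, the F1 hybrid of C57BL/6J and CAST/EiJ, at 14 days of age, with no treatment and no engineered allele named in the labels. There are 2 libraries, biological replicates 1 and 2, of total RNA depleted of ribosomal RNA, and spike-in RNAs and a stranded protocol were used. They come from separately labelled heart samples that share a donor label and are described as 3 males, and the labels do not say whether animals were pooled, so the spread between them may be partly technical. They form a single group, so no condition was compared, and the only difference tested was that between the libraries themselves.

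Mitochondria keep their own ribosomes, which translate the few proteins encoded by mitochondrial DNA, all of them core subunits of the respiratory chain and ATP synthase. The RNA of these ribosomes is made inside the organelle, while every one of their proteins is encoded in the nucleus, made in the cytosol and imported. Many of the proteins have counterparts in the ribosomes of bacteria, others were added during the evolution of mitochondria, and heart muscle, which depends on respiration, is among the tissues affected when human genes of this family are mutated.

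Gene levels below are in TPM, transcripts per 1000000 transcripts, a level already divided by transcript length, from the authors' RSEM-style gene tables unless the kallisto-style tables are named. The libraries held 39334380 and 46391250 expected counts in replicates 1 and 2, of which the members took 80505 and 98773. The samples were heart by their markers: the median of 5 cardiomyocyte genes was 7150 and 7049 TPM. Some markers of other tissue differed between the libraries, and others differed little. The 4 atrial genes Nppa, Myl7, Myl4 and Sln summed to 1585 TPM in replicate 1 and 491.7 TPM in replicate 2. The 8 thymus and T cell genes summed to 1.15 TPM in replicate 1, where Ptcra was at 0, and to 50.4 TPM in replicate 2. Of 3 brown adipocyte genes Ucp1 had 9.76 and 0.32 TPM in replicates 1 and 2, Cidea 25.8 and 22.6 TPM, and Dio2 0.46 and 0.31 TPM. The median was 177 and 158 TPM for 3 fibroblast genes, 77.4 and 71.1 TPM for 3 endothelial genes, and 4049 and 3992 TPM for 4 erythroid genes. In these bulk samples fewer cells of a type and less RNA per cell cannot be told apart.

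The sequences that carry the main exception among the members belong to Mrpl23, whose protein sits at the exit of the tunnel through which the new chain leaves the large subunit. Mrpl23 lies on chr7:142532686-142540747 (mm10, plus strand). Its processed pseudogene Mrpl23-ps1, a copy of the spliced RNA, lies on chr2:74591330-74591909 on the minus strand. Transcript Mrpl23-201, 692 bases long, aligned with the 580 bases of the pseudogene over 540 bases with 0 mismatches and 0 gaps, and its whole coding sequence of 441 bases lay inside that stretch. These are reference sequences, and the CAST/EiJ alleles of the F1 animals were not examined. The first 90 coding bases, read from the GENCODE M21 transcripts, are shown, with the start codon in capitals, because the same letters occur in both genes.
Mrpl23 and Mrpl23-ps1: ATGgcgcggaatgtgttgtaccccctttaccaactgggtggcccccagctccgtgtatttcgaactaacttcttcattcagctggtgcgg

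The second set of sequences shows motifs found in the promoters of some of the members. In RefSeq windows of 250 bases before to 50 bases after the start site (GRCm38.p6, 75 windows of 69 members, the other members not matched), 3 motifs named for known regulators of mitochondrial protein genes were searched on both strands: GCGC, then A and any base, then GCGC for NRF1, CCGGAAG for the ETS family, which includes GABPA, and AAGATGGCG for YY1. The NRF1 motif was found in 18.8% of the 69 members, against 12.0% of 8932 protein-coding genes at 1 TPM or more in both libraries and 7.17% of all protein-coding genes with a window. The ETS motif was found in 37.7% of the members, against 20.8% of the expressed genes and 12.9% of all. The YY1 motif was found in 11.6% of the members, against 3.78% of the expressed genes and 2.14% of all. At least 1 of the 3 motifs was present in 41 of the 69 members, 59.4%, against 32.5% of the expressed genes. ETS and YY1 motifs occurred in the same window 2 times and NRF1 and ETS motifs 4 times, and no match to one of these 3 overlapped a match to another. Overlap with the motifs below was not counted.

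Counted by gene, the other motifs searched were less frequent in the members than in the expressed genes. GGGCGG, the core bound by SP1, was found in 49.3% of the members and 70.7% of the expressed genes, TATAAA in 7.25% and 8.58%, TGACGTCA in 2.90% and 3.59%, CACGTG in 7.25% and 11.8%, and CCAAT in 39.1% and 43.2%. Over all protein-coding genes with a window the shares were 49.2% for GGGCGG, 14.8% for TATAAA, 2.54% for TGACGTCA, 8.91% for CACGTG and 42.3% for CCAAT, so that against all genes GGGCGG was about as frequent in the members and TGACGTCA, with 2 members, slightly more. A gene counted when any of its windows matched. The members had 75 windows for 69 genes, the expressed genes 11520 for 8932 and all genes 21263 for 17492. By window, members had GGGCGG in 52.0%, CACGTG in 9.33% and CCAAT in 40.0%, against 46.2%, 7.84% and 38.2% of all windows. TGACGTCA was in 2.67% against 2.23%, and TATAAA in 6.67% against 12.6%. Shares by window were not computed for the expressed genes. The windows had a median GC content of 58.7% in the members and 61.0% in the expressed genes, with a median of 21 CpG dinucleotides in both. A match is a description of letters, not a bound site or a cause. Without a test, the median TPM was 35.1 for the 26 members with the ETS motif and 27.9 for the 43 without it, 29.7 for the 13 with the NRF1 motif and 29.1 for the 56 without it, and 29.9 for the 8 with the YY1 motif and 29.2 for the 61 without it.

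All 8 YY1 matches are shown, since this motif had the largest ratio between members and expressed genes, then a selection of the NRF1 and ETS matches, from members among the highest or with cardiomyopathy mutations in the human gene. Capitals mark the motif or its complement, with 10 bases on either side where the window reaches that far, read 5′ to 3′ on the strand of the gene.
Mrpl42, YY1: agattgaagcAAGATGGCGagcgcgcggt
Mrpl35, YY1: ggcaggctgcAAGATGGCGgcttccatct
Mrpl37, YY1: tgcacgggcaAAGATGGCGgcgtccaggt
Mrps18a, YY1: ggtgcgttccAAGATGGCGgccctcaggg
Mrps24, YY1: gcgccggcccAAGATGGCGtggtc
Mrps27, YY1: ggtgcgctccAAGATGGCGgctcccatgg
Mrpl36, YY1: cgtgaccttaCGCCATCTTtcttcctggc
Mrps11, YY1: ctacgggcgcCGCCATCTTtctgtcttcc
Mrpl30, NRF1: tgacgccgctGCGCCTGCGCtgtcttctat
Mrpl12, NRF1: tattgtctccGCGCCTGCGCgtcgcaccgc
Mrps21, NRF1: ggaaagtccaGCGCCTGCGCtcagcaccga
Mrpl44, NRF1: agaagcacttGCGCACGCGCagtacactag
Mrpl33, ETS: cgcgcatgccCCGGAAGtagtcgttga
Mrpl51, ETS: aggggctaaaCCGGAAGtatttgactg
Mrps23, ETS: gccgcttccgCTTCCGGtaacagcccg
Mrpl3, ETS: gagaaacggaCCGGAAGtggcccggct
Mrps22, ETS: acctctcgagCCGGAAGttgctctatc
In 6 of the 8 genes the YY1 match lay within the first 50 bases after the start site and read AAGATGGCG on the strand of the gene, while in Mrpl36 and Mrps11 it lay before the start site in the opposite orientation.

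The members had a median level well above that of expressed protein-coding genes, with a narrower spread. Their median was 29.6 TPM in replicate 1 and 31.3 TPM in replicate 2, against 9.72 and 9.96 TPM for the 11421 protein-coding genes at 1 TPM or more in both libraries, so that the median member lay above 81.4% and 82.1% of those genes. The third quartile was 2.20 times the first in replicate 1 and 2.36 times in replicate 2, against 5.28 and 5.19 times for the expressed protein-coding genes. Other gene sets of large complexes were about as narrow, with 2.14 and 1.97 times for cytosolic ribosomal proteins and 2.35 and 2.37 times for nuclear subunits of oxidative phosphorylation. By mean level 6 members were over 100 TPM, 70 were between 10 and 100 TPM, and 2 were under 10 TPM. Together they held 0.312% ± 0.00514 of all TPM (SD, n = 2) and 0.209% ± 0.00583 of all expected counts. Of the 78 members, 77 reached 1 TPM in both libraries, and the exception was Mrpl23.

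**Figure D1:**
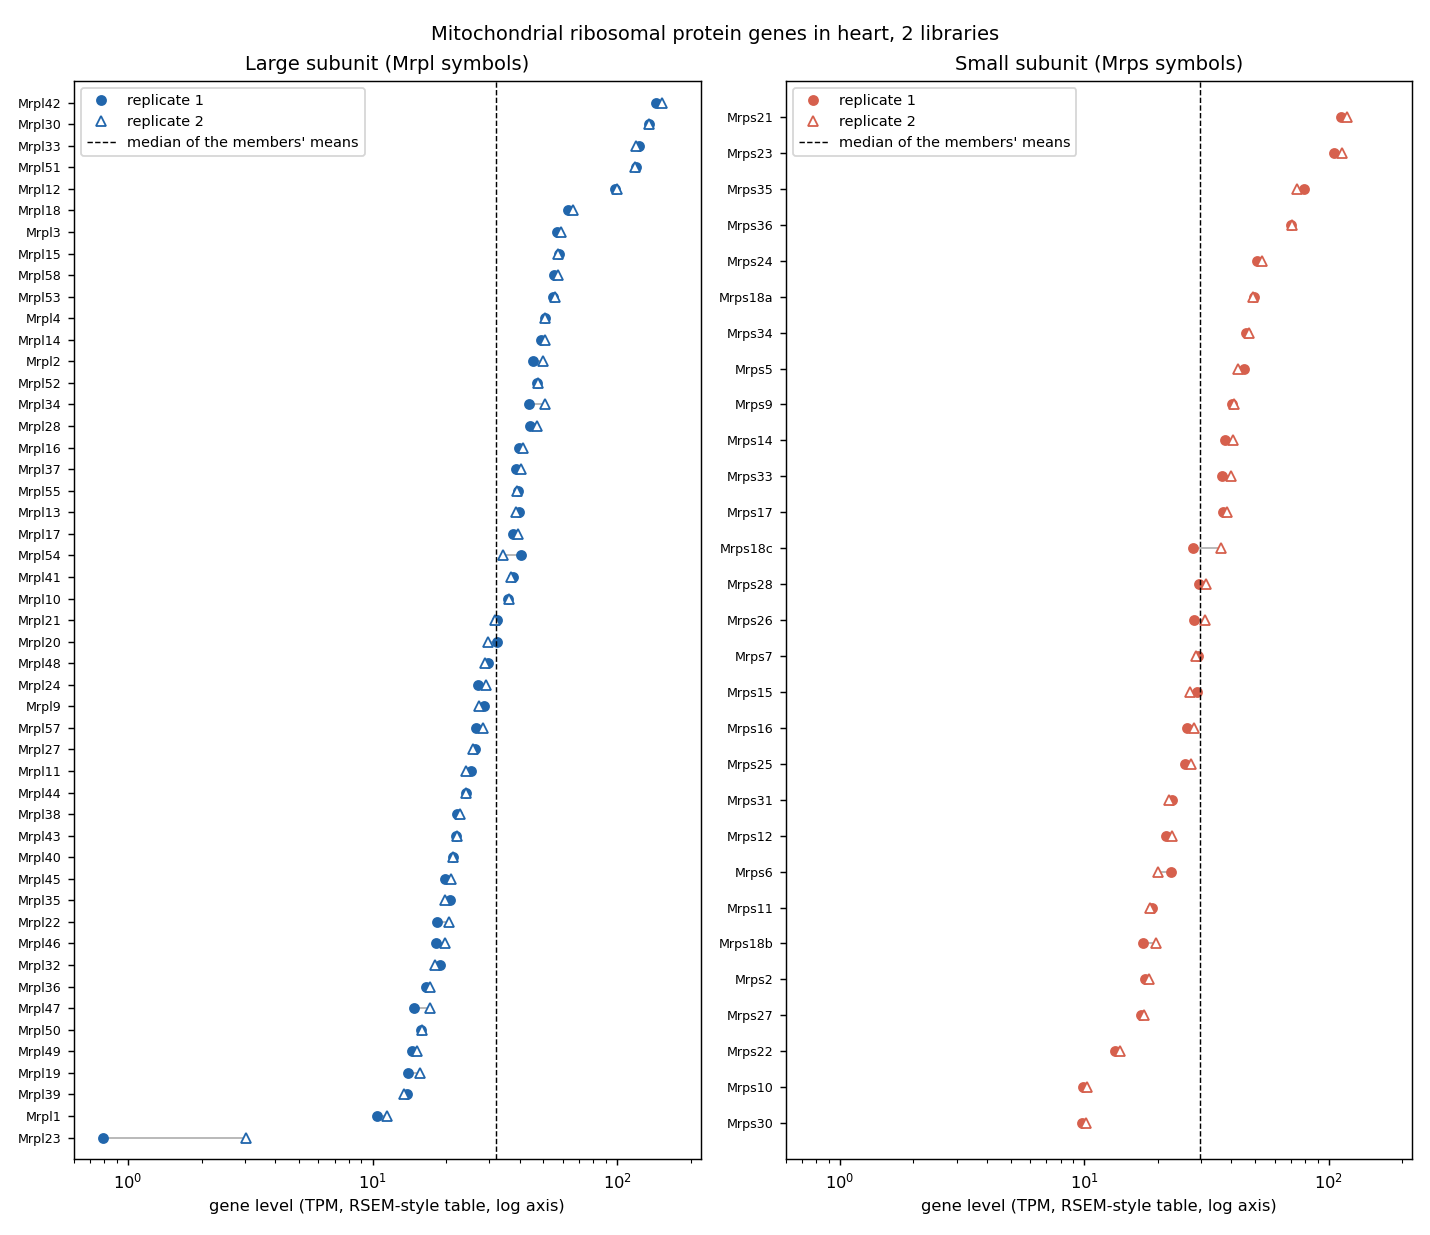
Level of every member in TPM on a log axis, with large subunit symbols on the left and small subunit symbols on the right, filled circles for replicate 1 and open triangles for replicate 2, and a dashed line in each panel at the median of its members' means. Both panels run over about the same range, the libraries nearly coincide for most members, and Mrpl23 stands alone at 0.79 and 3.03 TPM.

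Large and small subunit genes had nearly the same median. The 49 large subunit members had a median of 32.4 TPM in replicate 1 and 31.7 TPM in replicate 2, and the 29 small subunit members one of 28.9 and 31.2 TPM. The log2 ratio of the large over the small median was 0.17 in replicate 1 and 0.02 in replicate 2, a mean of 0.094 ± 0.101 (SD, n = 2), which is no larger than the spread between the libraries. Of the 49 large subunit members, 27 lay above the small subunit median in replicate 1 and 25 in replicate 2. Without division by length, as counts per 1000000, the direction turned, with a log2 ratio of -0.096.

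The symbols do not always give the place in the ribosome. In solved structures Mrps30 and Mrps18a belong to the large subunit, and Mrps36 is a subunit of the 2-oxoglutarate dehydrogenase complex and no ribosomal protein. With Mrps30 and Mrps18a moved and Mrps36 left out, the log2 ratio of the medians was 0.18 in replicate 1 and 0.08 in replicate 2. Mrps36 had 69.9 and 71.0 TPM in replicates 1 and 2 and ranked 9 among the members. Mrps30 had 9.76 and 10.1 TPM, next to the bottom of the list. The 3 genes that descend from 1 bacterial S18 gene differed: Mrps18a had 49.5 and 49.0 TPM, Mrps18c 27.9 and 36.3 TPM, and Mrps18b 17.4 and 19.7 TPM. Their ranges did not overlap, and the libraries gave the same order.

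Members with a counterpart in bacteria were close in median to those without one, except within the large subunit, where they were higher. The 47 with a counterpart had a median of 32.2 TPM in replicate 1 and 31.7 TPM in replicate 2, and the 30 without one had 27.4 and 28.6 TPM. Within the large subunit as the structures define it, the medians were 36.8 and 37.3 TPM for 30 genes with a counterpart and 26.6 and 28.3 TPM for 21 without. Within the small subunit they were 28.9 and 28.7 TPM for 17 genes with a counterpart and 28.1 and 31.2 TPM for 9 without. The quartiles of the sets overlapped throughout.

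**Figure D2:**
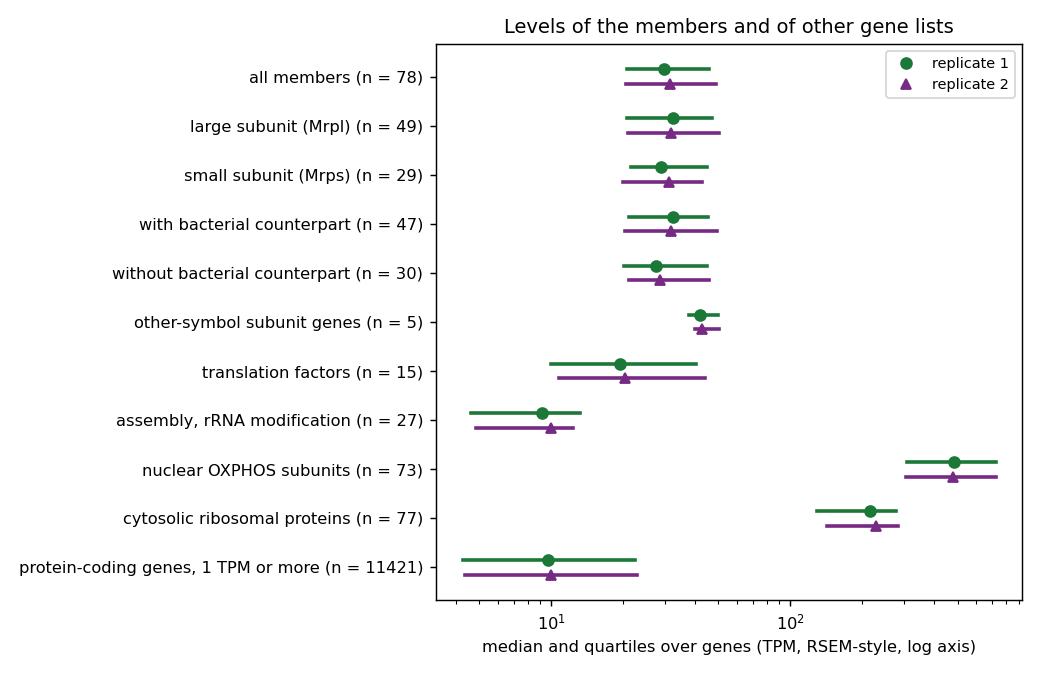
Median (symbol) and quartiles (bar) over genes of TPM on a log axis, for the members, their subdivisions and other gene lists, with circles for replicate 1 and triangles for replicate 2. The subdivisions of the members overlap each other, assembly and rRNA modification genes lie lower, and cytosolic ribosomal proteins and nuclear subunits of oxidative phosphorylation (OXPHOS) lie higher.

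The highest members came from both subunits and from both evolutionary classes. Mrpl42, a large subunit protein without a bacterial counterpart, led with 144 and 152 TPM in replicates 1 and 2. Mrpl30, the counterpart of bacterial L30, had 135 TPM in both libraries, and Mrpl33, the counterpart of L33, had 123 and 119 TPM. Mrpl51, specific to mitochondria, had 119 TPM in both libraries. In the small subunit Mrps21, the counterpart of S21, had 113 and 119 TPM, and Mrps23, specific to mitochondria, had 105 and 114 TPM. These 6 genes were the members over 100 TPM, and their order changed between the libraries only among neighbours. After them came Mrpl12 with 98.1 and 100.2 TPM, Mrps35 with 79.5 and 74.0 TPM, Mrps36, and Mrpl18 with 62.9 and 66.2 TPM. The 10 highest held 34.0% and 33.8% of the TPM of all members.

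The stalk that draws translation factors to the large subunit is built from Mrpl10, which anchors it, Mrpl12, present in several copies per ribosome, and Mrpl11 at its base. Mrpl12 had 98.1 and 100.2 TPM in replicates 1 and 2, Mrpl10 had 36.0 and 36.1 TPM, and Mrpl11 had 25.2 and 24.2 TPM. The order was the same in both libraries and in the kallisto-style tables, where the means were 152, 39.9 and 31.3 TPM.

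The levels of 7 genes of other working sites of the ribosome, chosen after their values were seen, ran from the lower part of the family to its upper part. Around the exit of the large subunit, Mrpl24 and Mrpl22, counterparts of proteins that line the bacterial tunnel, had 26.9 and 29.1 TPM and 18.4 and 20.5 TPM in replicates 1 and 2. Mrpl45, which in mammals holds the ribosome at the inner membrane, had 19.7 and 20.98 TPM. Mrpl58, a large subunit protein related to bacterial release factors that can free stalled chains, was higher with 55.5 and 57.3 TPM, and Mrpl2, the counterpart of the L2 protein beside the catalytic centre, had 45.4 and 49.7 TPM. In the small subunit Mrps12, the counterpart of the S12 protein at the decoding site, had 21.6 and 22.9 TPM, and Mrps7, the counterpart of the early binding S7 protein, 29.2 and 28.7 TPM. Mrpl58 and Mrpl2 were above the other 5 genes of this paragraph in both libraries and in both kinds of table.

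The lowest members, Mrpl23 aside, lay close together. Mrps30 had 9.76 and 10.1 TPM in replicates 1 and 2, Mrps10, the counterpart of bacterial S10, had 9.91 and 10.3 TPM, and Mrpl1, the counterpart of L1, had 10.4 and 11.5 TPM. Mrps22 had 13.4 and 14.0 TPM, Mrpl39 13.8 and 13.5 TPM, Mrpl19 13.9 and 15.6 TPM, and Mrpl49 14.5 and 15.2 TPM. Mrps30 and Mrps10 differed by less than the spread between the libraries, as did Mrps22 and Mrpl39, while Mrpl1 lay below both Mrps22 and Mrpl39 in each library. The 4 genes whose human counterparts carry cardiomyopathy mutations were spread over the family: Mrpl3 had 56.7 and 59.2 TPM, Mrps14 37.7 and 40.4 TPM, Mrpl44 24.1 and 24.0 TPM, and Mrps22 the values above.

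Longer members had lower levels. Length was taken from the RSEM-style gene tables, as the mean of the 2 libraries. Its median over the members was 974 bases in replicate 1 and 976 in replicate 2, so it was not fixed by the annotation alone. Over the 78 genes the correlation of log2 length with log2 mean TPM was -0.54 by Pearson and -0.55 by Spearman, against -0.21 and -0.15 over the 11421 expressed protein-coding genes, as a description across genes that share libraries and are not independent replicates. The 39 members of up to 985 bases had a median of 39.7 TPM in both libraries, and the 39 longer ones 22.9 and 22.8 TPM. With the same lengths set against kallisto-style TPM, the correlation was -0.63 by Pearson and -0.58 by Spearman. Both TPM values are themselves divided by length, and the part of this division in the correlations was not tested.

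Set beside the rest of their pathway, the members had a median TPM above those of the factors that build and run the mitochondrial ribosome and below that of the nuclear subunits of the respiratory chain and ATP synthase. The 5 ribosomal proteins with other symbols had a median of 41.9 and 42.7 TPM in replicates 1 and 2. Of these, Dap3, a GTP-binding protein of the small subunit, had 50.04 and 51.8 TPM, Ptcd3 51.4 and 50.4 TPM, Chchd1 41.9 and 42.7 TPM, Aurkaip1 37.6 and 40.0 TPM, and Gadd45gip1, of the large subunit, 10.03 and 10.24 TPM.

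The 15 mitochondrial translation factors had a median of 19.4 and 20.3 TPM and spread more widely. The elongation factor gene Tufm had 130 and 127 TPM in replicates 1 and 2, Gfm1, for another elongation factor, 90.3 and 87.9 TPM, and Lrpprc, which stabilises mitochondrial messenger RNA, 64.7 and 62.2 TPM. At the low end Mtrf1, a release factor gene, had 2.47 and 2.17 TPM, and Mtfmt, which formylates the initiator tRNA, 2.98 and 2.85 TPM. The 27 genes of ribosome assembly and rRNA modification were lower than the members, with a median of 9.18 and 10.02 TPM. Dhx30 led with 26.2 and 29.2 TPM, followed by Trmt2b with 20.8 and 22.5 TPM and Mterf3 with 19.8 and 21.3 TPM, and Ybey and Tfb1m were lowest with 1.49 and 1.27 TPM and 3.14 and 3.41 TPM.

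The 73 nuclear subunits of oxidative phosphorylation had a median of 482 and 479 TPM in replicates 1 and 2, and the 77 cytosolic ribosomal proteins 215 and 229 TPM. The mitochondrial rRNAs mt-Rnr2 and mt-Rnr1, of the large and the small subunit, had 111341 and 109168 TPM and 56973 and 55047 TPM. Ribosomal RNA was depleted before sequencing, so these values need not be the cell's level of rRNA.

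Between the libraries the members differed little. Their levels correlated with a Pearson coefficient of 0.98 over 78 genes on the log2 scale, and 0.99 without Mrpl23. For each gene the counts of the libraries were compared with an exact binomial test, 2-sided, with library sizes scaled by the trimmed mean of M-values (TMM) and Benjamini-Hochberg adjustment over 16611 genes. It covers counting error only and compares these libraries, not a condition. At an adjusted p of 0.05 or less it called 5 of 78 members, 6.41%, against 22.0% of all genes tested. Of the members 2 were higher in replicate 1, where 11.1% of all genes were, and 3 were lower, where 10.9% of all genes were. Among the 5230 other protein-coding genes whose smaller count lay between 414 and 2238, the range of most members, the share called was 23.3%. Of the lists above, 0 of the 5 ribosomal proteins with other symbols were called, 2 of the 15 translation factors (13.3%, both lower in replicate 1) and 2 of the 27 assembly and rRNA modification genes (7.41%, both higher in replicate 1), also to be read against the 22.0% of all genes. Of the larger lists, 20.8% of the cytosolic ribosomal proteins and 41.1% of the OXPHOS subunits were called, at median counts of 3783 and 9134.5, against 990.5 for the members.

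The changes called by RSEM-style counts were small except in Mrpl23, which was not called by kallisto-style counts. Mrpl54, a large subunit protein without a bacterial counterpart, had 628 and 630 counts in replicates 1 and 2, a log2 ratio of 0.27 (95% interval 0.11 to 0.44) once the deeper sequencing of replicate 2 is counted (adjusted p = 0.00537, exact binomial test). Mrps6, the counterpart of bacterial S6, had 528 and 547 counts and a log2 ratio of 0.23 (0.053 to 0.40, adjusted p = 0.0466 by the exact binomial test). Mrps17, the counterpart of S17, had 1078 and 1470 counts and a log2 ratio of -0.17 (-0.28 to -0.054, adjusted p = 0.0206 by the exact binomial test). Mrpl34, the counterpart of L34, had 681 and 945 counts and a log2 ratio of -0.19 (-0.34 to -0.049, adjusted p = 0.0377 by the exact binomial test). These 4 were called by kallisto-style counts too, and none with a biological coefficient of variation of 0.1 assumed in edgeR's exact test.

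Mrpl23 had 31 and 87 counts in replicates 1 and 2, a log2 ratio of -1.19 (-1.85 to -0.60, adjusted p = 0.000285 by the exact binomial test), and was the 1 member called at 2-fold or more, where 3.23% of all genes were. With the counts of Mrpl23-ps1 added it had 780 and 866 counts and a log2 ratio of 0.13 (-0.013 to 0.27, adjusted p = 0.212 by the exact binomial test). By kallisto-style counts the log2 ratio of Mrpl23 was 0.081 (adjusted p = 0.482, exact binomial test). The test takes the assigned counts as given and does not cover the assignment of reads between Mrpl23 and Mrpl23-ps1. Over all 78 members 76 ratios lay within 0.25 on the log2 scale, and 69 intervals included 0. Of the members not called, Mrps18c had the lowest ratio, with 453 and 622 counts and a log2 ratio of -0.18 (adjusted p = 0.15, exact binomial test), followed by Mrpl47 with -0.17. On the other side Mrpl39 and Mrpl20, not called, had log2 ratios of 0.12. The atrial and the thymus and T cell markers had median log2 ratios of 1.60 and -6.19, with 4 of 4 atrial genes called higher and 7 of 7 tested thymus and T cell genes called lower in replicate 1. The part of such tissue in the ratios of the members was not tested.

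**Figure D3:**
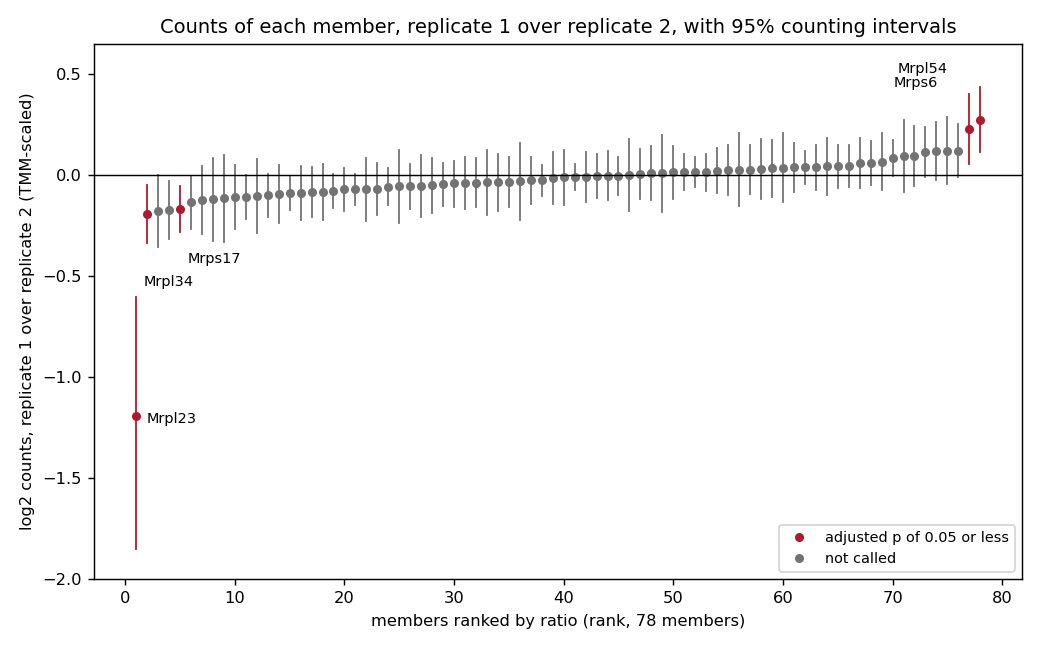
Log2 ratio of TMM-scaled counts, replicate 1 over replicate 2, for the 78 members in order of the ratio, with 95% exact binomial intervals that cover counting error only, and the 5 members called at an adjusted p of 0.05 or less in red. All but Mrpl23 lie between -0.19 and 0.27, and most intervals include 0.

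The authors' quantifications gave the members different levels, and Mrpl23 most of all. In the RSEM-style tables Mrpl23 had 0.79 and 3.03 TPM in replicates 1 and 2 and ranked last of 78. In the kallisto-style tables it had 68.8 and 64.8 TPM and ranked 17. The pseudogene Mrpl23-ps1 was the mirror image, with 50.9 and 44.2 TPM from 749 and 779 expected counts in the RSEM-style tables and 0 in the kallisto-style tables. The mean log2 ratio of RSEM-style over kallisto-style TPM was -5.32 for Mrpl23, against a median of -0.35 over the members and -0.26 over the expressed protein-coding genes. The credibility interval in the RSEM-style tables was wide for Mrpl23, 1.15 to 11.8 TPM in replicate 1 around a posterior mean of 5.57 TPM, and 2.08 to 14.2 TPM in replicate 2 around 7.50 TPM. The level of Mrpl23 is uncertain to this extent, and the part of the shared sequence in the difference between the tables was not tested.

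Other members shared sequence with other genes too, some of them in a larger part than Mrpl23. For words of 31 bases, the share also found in another gene was 14.2% in Mrpl23 and reached 84.4% in Mrpl53. Of the 78 members, 16 shared no such word with any other gene. In 16, at least 1 other gene had 50% or more of its own words in the member. There were 24 such genes in all, 13 of them pseudogenes. The rest included short miRNA genes and genes that overlap the member, so not all are copies. In 7 members such genes took over 1% of the counts of the member and these genes together, and in 3 over 10%. After Mrpl23-ps1, with 92.8%, came Nme3 beside Mrps34 with 21.1%, a protein-coding neighbour that shares transcribed sequence with it, and AC154457.3 beside Mrps10 with 10.3%. Mrpl48-ps had 107 and 119 expected counts in the RSEM-style tables, 9.12% of the sum with Mrpl48, against 1.48 and 0 counts in the kallisto-style tables. Gm5776, a copy of Mrps33, had 61.4 and 89.0 counts in the RSEM-style tables and 0 in the kallisto-style tables, and Gm13328, a copy of Mrps5, 53.5 and 74.2 counts against 0 and 1.73.

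Apart from Mrpl23 the tables gave much the same order at a shifted level. Of the members 75 were higher in the kallisto-style tables, where the median was 41.4 and 42.8 TPM in replicates 1 and 2. The Pearson correlation of log2 mean TPM between the tables was 0.80 over 78 members and 0.94 without Mrpl23. Of the 10 highest members by RSEM-style level, 8 were among the 10 highest by kallisto-style level. Effective length, the divisor behind TPM, was 99 bases shorter than the transcript in the RSEM-style tables, but 332 and 336 bases shorter in the kallisto-style ones. Across the members other than Mrpl23, log2 length and the log2 ratio of the tables correlated with coefficients of 0.21 by Pearson and 0.27 by Spearman over 77 genes. The 3 members higher in the RSEM-style tables were Mrpl17 with 37.6 and 39.4 TPM against 26.3 and 23.3, Mrps5 with 44.9 and 42.7 TPM against 38.0 and 33.9, and Mrpl15 with 58.1 and 57.2 TPM against 54.9 and 54.4. After Mrpl23 the largest differences the other way were Mrpl27 with 26.3 and 25.8 TPM against 64.7 and 69.3, Mrpl3 with 56.7 and 59.2 TPM against 109 and 120, and Mrpl35 with 20.7 and 19.8 TPM against 39.5 and 39.0.

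**Figure D4:**
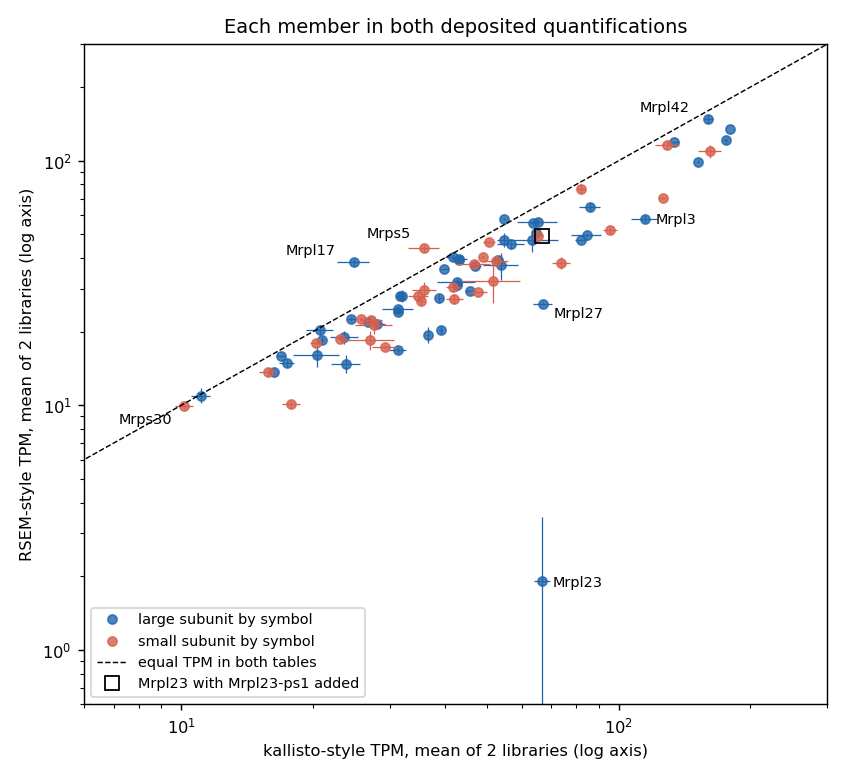
Mean TPM of each member in the RSEM-style tables against its mean in the kallisto-style tables, both on log axes, with SD over 2 libraries as bars, blue for large and red for small subunit symbols, and a dashed line of equal values. Most members lie a little under the line, Mrpl23 lies far under it, and the open square shows Mrpl23 with its pseudogene Mrpl23-ps1 added; the lower bar of Mrpl23 runs past the axis.

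Not all of the members' RNA was assigned to transcripts that encode the protein. Protein-coding transcripts held 76.9% and 76.8% of the members' TPM in replicates 1 and 2 in the RSEM-style tables and 71.6% and 71.7% in the kallisto-style tables. Processed transcripts, which have no open reading frame in the annotation, held 9.25% and 9.04%, transcripts with a retained intron 7.98% and 8.37%, and transcripts annotated for nonsense-mediated decay 5.86% and 5.76% in the RSEM-style tables. The median member had 95.1% of its TPM in protein-coding transcripts, against 92.1% for the median expressed protein-coding gene, but 17 of 78, 21.8%, had under 50%, against 7.75% of the expressed protein-coding genes. By the kallisto-style values 19 had under 50%, and 14 did so in both kinds of table.

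The 6 lowest shares by the RSEM-style tables were those of Mrps26, Mrps16, Mrpl51, Mrpl57, Mrps14 and Mrpl15. In Mrps26 protein-coding transcripts held 3.98% and 2.92% of the TPM in replicates 1 and 2, while Mrps26-201, with a retained intron, had 27.0 and 30.3 TPM. In Mrps16 they held 4.21% and 3.60%, while the processed transcript Mrps16-202 had 25.3 and 27.1 TPM. In Mrpl51, among the highest members, they held 4.34% and 4.48%, with 73.6 and 73.8 TPM in the processed transcript Mrpl51-202. The kallisto-style tables gave low shares for these 3 as well, 3.63% and 2.83%, 0.807% and 1.08%, and 5.38% and 5.51%. Mrps14 differed between the tables. Its protein-coding share was 5.31% and 5.32% in the RSEM-style tables, with 35.7 and 38.2 TPM in the decay transcript Mrps14-201, and 95.04% and 93.3% in the kallisto-style tables, with 46.3 and 50.1 TPM in the protein-coding transcript Mrps14-202. The leading transcript was the same in both kinds of table for 54 of the 78 members, so the transcript that leads is uncertain for the rest.

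**Figure D5:**
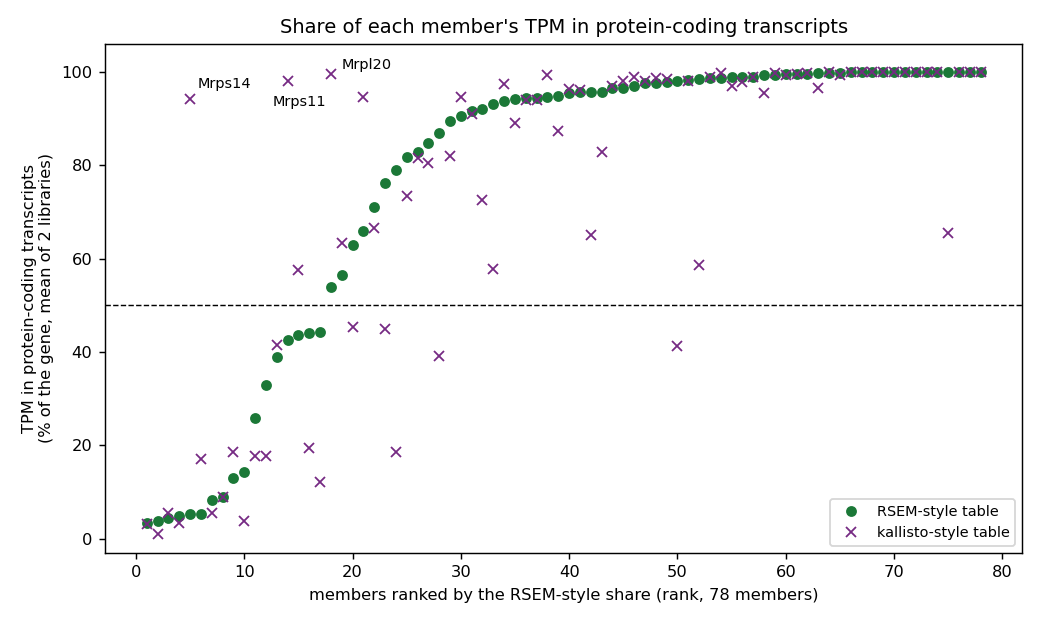
Share of each member's TPM in protein-coding transcripts, in percent and as the mean of 2 libraries, for members in order of the RSEM-style share, with circles for the RSEM-style and crosses for the kallisto-style tables and a dashed line at 50%. The 17 members at the left lie under the line by the RSEM-style tables, and Mrps14, Mrps11 and Mrpl20 are far higher by the kallisto-style tables.

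The members were scattered over the genome. They lay on 17 chromosomes, with 11 genes on chromosome 11 and 8 on chromosome 17, and only Mrpl46 and Mrps11 were neighbours. These genes, 1 for each subunit, stand head to head on chromosome 7. Mrpl46 lies on chr7:78775236-78783531 on the minus strand and Mrps11 on chr7:78783119-78792989 on the plus strand, overlapping by 413 bases at the outermost annotated ends. Their RefSeq start sites are 42 bases apart, and the plus strand of chr7:78783069-78783151 (GRCm38.p6) is shown from 20 bases before the first to 20 bases after the second, with the bases from start to start in capitals.
Mrpl46 and Mrps11: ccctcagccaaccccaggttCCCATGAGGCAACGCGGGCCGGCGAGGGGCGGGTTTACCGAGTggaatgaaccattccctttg
Mrpl46 had 18.1 and 19.8 TPM in replicates 1 and 2, and Mrps11 had 19.0 and 18.5 TPM. Their ranges overlapped. Where genes overlap on opposite strands, as 36 of the 78 members do with some annotated gene, the counts are certain only if strand was used in counting, which is not given in the sources used here.

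Start sites facing another protein-coding gene were common. By gene bounds 18 of 78 members, 23.1%, had a protein-coding start on the other strand within 1000 bases upstream, against 10.5% of the expressed protein-coding genes. Pairs whose outermost annotated ends overlap, such as Mrpl46 and Mrps11, did not count in either share. For the 18 members the distance ran from 26 to 935 bases with a median of 82, and 15 of the 18 partners reached 1 TPM in both libraries. The levels of the partners covered a wide range. Fau, which encodes a cytosolic ribosomal protein and lies 59 bases from Mrpl49, had 252 and 261 TPM in replicates 1 and 2, where Mrpl49 had 14.5 and 15.2 TPM. Mitd1, 66 bases from Mrpl30, had 2.52 and 2.07 TPM, where Mrpl30 had 135 TPM in both libraries. Psma2, a proteasome subunit gene 75 bases from Mrpl32, had 22.8 and 23.2 TPM, and Mrpl32 had 18.9 and 18.1 TPM. Apba3, 26 bases from Mrpl54, had 30.95 and 39.8 TPM, while Mrpl54 had 40.7 and 34.0 TPM.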

How the data were processed

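Stranded total RNA sequencing of heart gave 2 libraries, 1 group. The authors deposited, per the file headers, RSEM-style gene and transcript tables with expected counts and TPM, and kallisto-style transcript tables with estimated counts and TPM; the tool names come from the column names. The authors' readme names mm10 and annotation M21. Tool versions and strand settings: not given in the sources used here. Deposited percent values give each transcript's part of its gene's TPM, per the file headers.

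Kallisto-style values were summed per gene, and log2 values used a pseudocount of 0.1. Expected counts were rounded and tested per gene by a 2-sided exact binomial test with TMM-scaled library sizes (edgeR 4.0.16, R 4.3.3), over genes whose counts reached 10 in both libraries or summed to 20, after a test on simulated data. DESeq2 1.42.0 size factors, edgeR's exact test with assumed spread, other tables and filters, and each library alone were tried as alternatives. Intervals are 95% and cover counting error only, without molecular identifiers known. SDs are over the 2 libraries. Promoters come from RefSeq (GRCm38.p6).

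The members, lists and tests were chosen with earlier results of these data known. Genes named with values were the highest and lowest members, those differing most between libraries or tables, every member called between libraries, those lowest in protein-coding share, members of unusual place or known disease, and list leaders; genes of other working sites, copies and divergent partners were chosen after their values were seen.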

Additional observations from a re-analysis of the deposited data

Results flagged for a closer look

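Symbols of the family that the rule leaves out had counts in both libraries. Mrpl23-ps1, a processed pseudogene, had a mean of 47.5 TPM in the RSEM-style tables, from 749 and 779 expected counts in replicates 1 and 2, and 0 in the kallisto-style tables. Mrpl48-ps, a processed pseudogene, had a mean of 6.29 TPM in the RSEM-style tables, from 107 and 119 expected counts, and 1.48 and 0 estimated counts in the kallisto-style tables. In the RSEM-style tables both are above the 3 counts that a count of 0 allows. These are assigned counts, so passing this limit does not show that either pseudogene had reads of its own. The other pseudogene symbols, 3 copies of Mrps36, had at most 2.72 expected counts. What these counts come from was not tested.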

How the results depend on the processing

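No paired analysis was possible because both libraries belong to the same group. The median TPM of the large subunit members was 32.0 by the RSEM-style tables; it was 42.7 by the kallisto-style tables, 24.8 over protein-coding transcripts alone, 22.4 as counts per 1000000 and 35.0 with Mrpl23-ps1 added to Mrpl23, an alternative chosen after seeing the data. For the small subunit members it was 30.0, against 41.7, 20.5 and 23.9 under the first 3 of these. The log2 ratio of the medians was 0.094, against 0.27 over protein-coding transcripts, -0.096 as counts per 1000000 and 0.22 with the pseudogene added, and it stayed within 1 SD under the other alternatives. The SD of log2 TPM among members was 1.02; it was 0.94 by the kallisto-style tables, 1.61 over protein-coding transcripts, 0.92 by posterior means, 0.87 as counts per 1000000, 0.89 over members at 1 TPM or more, 0.89 without Mrpl23 and 0.89 with its pseudogene added, the last 2 chosen after seeing the data. The members' share of TPM was 0.312%, against 0.421% by the kallisto-style tables, 0.240% over protein-coding transcripts and 0.209% of counts. Each library alone gave 31.7 to 32.4 and 28.9 to 31.2 TPM for the subunit medians, 0.022 to 0.17 for their log2 ratio, 0.96 to 1.07 for the SD and 0.309% to 0.316% for the share. Between 76 and 78 members reached 1 TPM (or 1 count per 1000000) in both libraries under every alternative. The 5 members called between the libraries became 3 without a filter on low counts, 1 at 2-fold or more, and 1 and 0 in edgeR's exact test when the biological coefficient of variation was set to 0.1 and 0.2, where 1 had an unadjusted p under 0.05. They were 5 with DESeq2 size factors and 4 by kallisto-style counts or with the pseudogene added to Mrpl23. Single members moved over 1.5 times in 20 of 78 genes by the kallisto-style tables, in 20 over protein-coding transcripts and in 1 by posterior means. The cause of these shifts was not tested. With 2 libraries of 1 group the spread between animals is unknown, and members with fewer counts, such as Mrpl23, have the widest intervals. The counting interval of Mrpl23 does not cover the assignment of reads between it and Mrpl23-ps1.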
